A study of Mus musculus with 6 samples.

Results

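Microglia and macrophages were followed here through 10 genes that mark them: Csf1r, Cx3cr1, Mrc1, C1qa, C1qb, Fcer1g, Tyrobp, Cd68, Aif1 and Laptm5. The members were all 19 probe sets on the array whose annotation gave exactly 1 gene symbol and that symbol was among the 10, out of 45037 non-control probe sets and 18193 genes so annotated. Gene expression was measured on 6 Affymetrix MOE430 2.0 arrays of ventral forebrain (ventral telencephalon in the sample labels) from E13.5 mouse embryos (E for embryonic day). The 3 arrays of the knockout came from embryos labelled as homozygous for loss of the transcription factor gene Olig2 (Olig2-/-, replicates 2, 4 and 5), and the 3 arrays of the wild type from Olig2+/+ embryos (replicates 1, 4 and 5). The design gives 5 replicates per genotype, and only these 3 of each were available here. Each array carried labelled RNA of 3 brains pooled, so no array shows a single embryo. How Olig2 was inactivated and the strain of the embryos are not stated in the labels.

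Microglia are the resident macrophages of the brain. They descend from yolk sac progenitors that enter the neural tube early in embryonic life, depend on signals through the receptor Csf1r, and take up dying cells. Other macrophages lie in the meninges and along vessels, and the mannose receptor Mrc1 is known from those. Both make up a small share of the cells of an embryonic forebrain.

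The arrays had medians between 3.14 and 3.19 (log2 expression, all non-control probe sets), and 33.2% to 33.7% of the values on each array lay within 0.03 of the lowest value in the table, 2.27. Olig2 itself read 7.48, 7.53 and 7.76 on the knockout arrays and 8.20, 8.22 and 8.42 on the wild-type arrays, so the groups did not overlap. The knockout mean was 1.62-fold lower (limma's adjusted p = 0.511), and strong Olig2 signal remained in the libraries labelled Olig2-/-. The position of this probe set on the Olig2 allele was not analysed here. Markers of the labelled tissue were present: 7 of 8 measured genes of the ventral telencephalon list were above the array median on at least 3 arrays, Lhx6 among them at 8.22 to 9.10. Knockout replicate 2 stood apart in Postn and Col3a1 among the 4 kept genes of the meninges and mesenchyme list. Postn, a matrix protein of connective tissue, read 7.93 there and 3.36 to 3.86 on the other 5 arrays. Col3a1 read 8.10 there and 4.04 to 6.20 on the others. Crabp2 was lowest on that array (7.30), and Fbln1 (6.14) lay within the range of the others. A number of the differences below are also given without knockout replicate 2.

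A probe set was kept for testing if at least 3 of the 6 arrays, of either genotype, read it above their own median. A kept probe set was called detected if it was above a log2 value of 4 on at least 3 arrays and dim otherwise, and every other probe set was called floor-level. By this rule 3 of the 19 member probe sets were detected, 4 were dim and 12 were floor-level. The detected ones belonged to 2 genes, Csf1r and Laptm5. The genes C1qb, Cx3cr1 and Tyrobp were dim at best, and C1qa, Fcer1g, Mrc1, Cd68 and Aif1 were floor-level on every probe set. The 5 of 10 member genes with a kept probe set stand beside 58.4% of all 18193 genes. A floor-level reading does not show that a transcript is absent, since background subtraction removes weak signal.

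**Figure D1:**
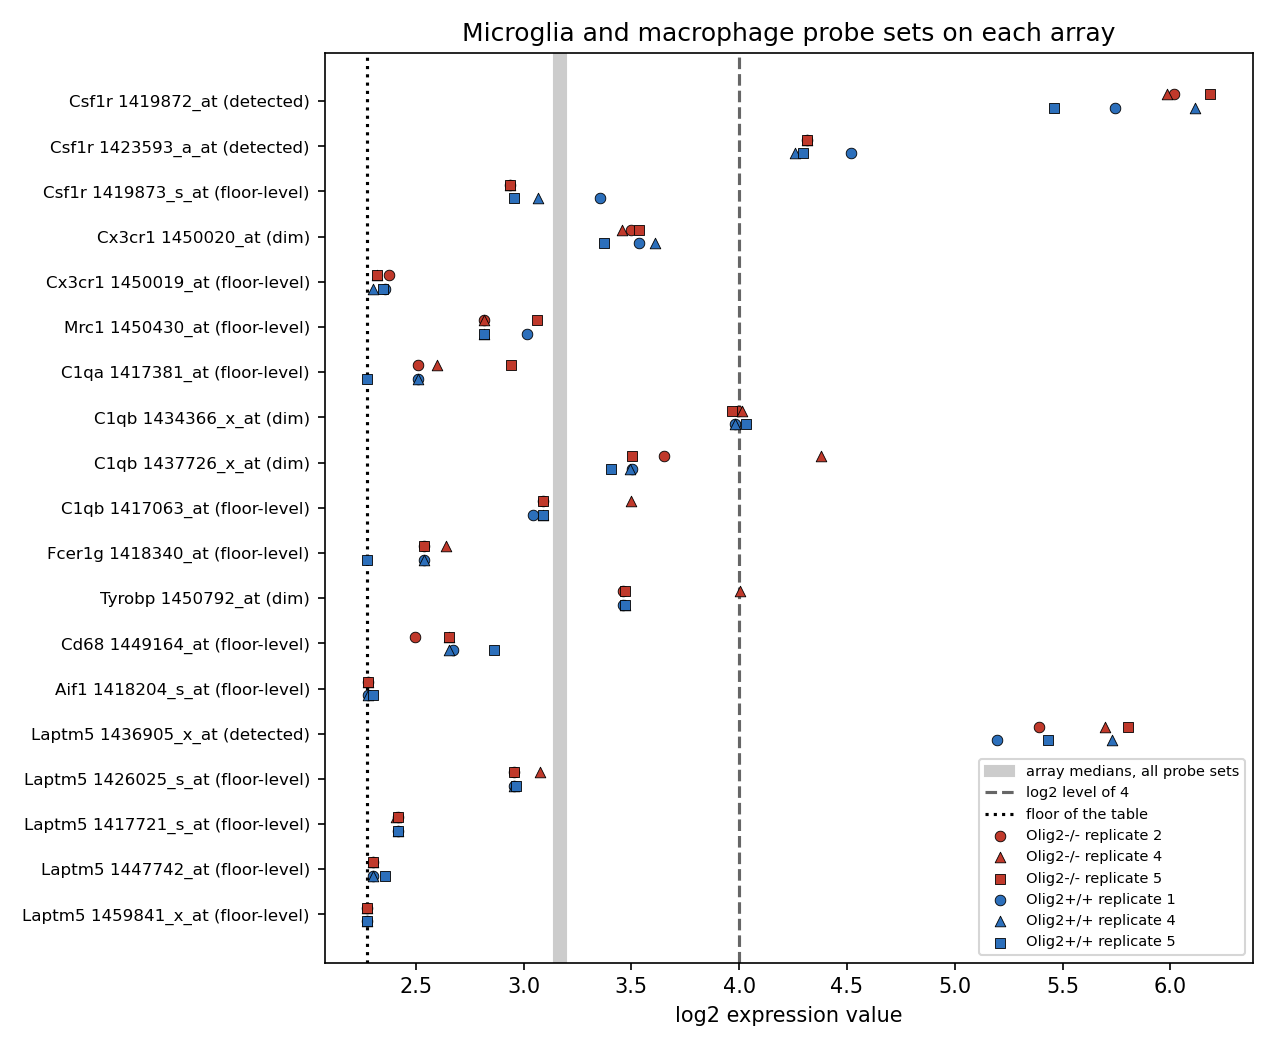
Log2 expression value (x axis) of the 19 member probe sets on each of the 6 arrays (points, red for Olig2-/- and blue for Olig2+/+, shape by replicate number). The grey band spans the array medians of 3.14 to 3.19, and only 1 probe set each of Csf1r and Laptm5 read above a log2 value of 5 on any array.

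The receptors came first. Csf1r encodes the receptor for colony stimulating factor 1 and interleukin 34, on which microglia depend for survival. Its brightest probe set (1419872_at) read 6.02, 5.98 and 6.19 in the knockout and 5.74, 6.11 and 5.46 in the wild type. The wild-type arrays spread more widely than the knockout arrays, and wild-type replicate 4 lay among the knockout values. The knockout mean minus the wild-type mean was 0.29 on the log2 scale (SE 0.17, 95% interval from -0.14 to 0.72), and limma's adjusted p was 0.542. Leaving out single arrays gave differences from 0.13 (without wild-type replicate 5) to 0.46 (without wild-type replicate 4) at this probe set.

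The other probe sets of Csf1r read differently. The second (1423593_a_at) read 4.32 on each knockout array and 4.52, 4.26 and 4.30 on the wild-type arrays, a difference of -0.04 (SE 0.09, limma's adjusted p = 0.844), which was 0.04 without wild-type replicate 1. The third (1419873_s_at) was floor-level, at 2.94 on every knockout array and 3.36, 3.07 and 2.95 on wild-type replicates 1, 4 and 5. It was the only member probe set whose groups did not overlap, and the knockout was the lower one, where 8.74% of all non-control probe sets had groups without overlap. Its difference was -0.19, and -0.07 without wild-type replicate 1. The knockout readings of the third probe set were identical to 2 decimals. Which part of the Csf1r transcript each probe set reads was not analysed here.

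Cx3cr1 encodes the fractalkine receptor, a marker of microglia and of circulating monocytes. Its dim probe set (1450020_at) read 3.50, 3.46 and 3.54 in the knockout and 3.54, 3.61 and 3.37 in the wild type. The knockout values lay inside the wild-type range, and the difference was -0.01 (SE 0.08, 95% interval -0.22 to 0.20, limma's adjusted p = 0.974). Its sign turned positive when the arrays were centred on their medians (0.01) and when quantile normalization was repeated (0.01). The other probe set of Cx3cr1 stayed between 2.30 and 2.38 on all 6 arrays.

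Mrc1 encodes the mannose receptor, an endocytic receptor of macrophages at the borders of the brain. Its single probe set (1450430_at) was floor-level, at 2.82, 2.82 and 3.06 in the knockout and 3.02, 2.82 and 2.82 in the wild type. Knockout replicate 5 and wild-type replicate 1 stood above the other 4 arrays, which shared the value 2.82. Knockout replicate 2, the array with the high Postn value, was among those at 2.82.

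The complement genes C1qa and C1qb encode chains of C1q, the recognition protein of the classical complement pathway, which microglia make. The single probe set of C1qa (1417381_at) was floor-level, at 2.51, 2.60 and 2.94 in the knockout and 2.51, 2.51 and 2.27 in the wild type. Wild-type replicate 5 was at the floor of the whole table and knockout replicate 5 was the highest. The difference of 0.25 was the widest among the floor-level member probe sets, and was 0.12 without knockout replicate 5. Knockout replicate 2 matched wild-type replicates 1 and 4 to 2 decimals.

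C1qb had 3 probe sets. The one with the highest mean (1434366_x_at) stayed between 3.97 and 4.03 on all 6 arrays and differed by -0.01 (SE 0.06, 95% interval -0.16 to 0.14, limma's adjusted p = 0.976), a sign that also turned under median centring (0.01) and repeated quantile normalization (0.02). The second (1437726_x_at) read 3.65, 4.38 and 3.50 in the knockout and 3.50, 3.50 and 3.41 in the wild type. Knockout replicate 4 stood 0.73 above the next array there. The difference was 0.38 (SE 0.23, 95% interval -0.20 to 0.95, limma's adjusted p = 0.549), and 0.11 without knockout replicate 4. The third (1417063_at), floor-level, was likewise highest on knockout replicate 4, at 3.50 against 3.04 to 3.09 on the other arrays.

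Fcer1g and Tyrobp encode small membrane adaptors that carry an immunoreceptor tyrosine-based activation motif and signal for receptors without one of their own. Fcer1g is the gamma chain of Fc receptors and is also made by other leukocytes, and Tyrobp (DAP12) is the partner of Trem2. Fcer1g (1418340_at) was floor-level, at 2.54, 2.64 and 2.54 in the knockout and 2.54, 2.54 and 2.27 in the wild type. Apart from knockout replicate 4 and wild-type replicate 5, its values were equal to 2 decimals.

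Tyrobp (1450792_at) was dim, at 3.46, 4.01 and 3.47 in the knockout and 3.46, 3.47 and 3.47 in the wild type. Knockout replicate 4 stood 0.53 above the next array, and the other 5 arrays lay within 3.46 to 3.47. The difference was 0.18 (SE 0.16, 95% interval -0.21 to 0.57, limma's adjusted p = 0.635). Without knockout replicate 4 it was 0.00085, and without knockout replicate 2 it was 0.27.

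Cd68, Aif1 and Laptm5 encode proteins inside the cell. Cd68 is a glycoprotein of lysosomes and endosomes in phagocytes. Its single probe set (1449164_at) was floor-level, at 2.50, 2.66 and 2.66 in the knockout and 2.67, 2.66 and 2.86 in the wild type, with knockout replicate 2 lowest and wild-type replicate 5 highest. Aif1 encodes Iba1, the calcium-binding protein by which microglia are commonly stained. Its single probe set (1418204_s_at) stayed between 2.28 and 2.30 on all 6 arrays, next to the floor of 2.27.

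Laptm5 encodes a lysosomal membrane protein of blood-derived cells. Only 1 of its 5 probe sets (1436905_x_at) was kept, and it read 5.39, 5.70 and 5.80 in the knockout and 5.20, 5.73 and 5.43 in the wild type. The groups overlapped, with wild-type replicate 4 above 2 knockout arrays. The difference was 0.18 (SE 0.17, 95% interval -0.25 to 0.60, limma's adjusted p = 0.661), and single arrays left out gave 0.05 (without wild-type replicate 1) to 0.32 (without wild-type replicate 4), with 0.30 without knockout replicate 2 and 0.09 without knockout replicate 5. The other 4 probe sets of Laptm5 were floor-level, from 2.27 to 3.08. Affymetrix gives the suffix _x_at, which this probe set and both dim probe sets of C1qb carry, to probe sets with probes that can match other transcripts, so their signal is uncertain as a measure of these genes.

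**Figure D2:**
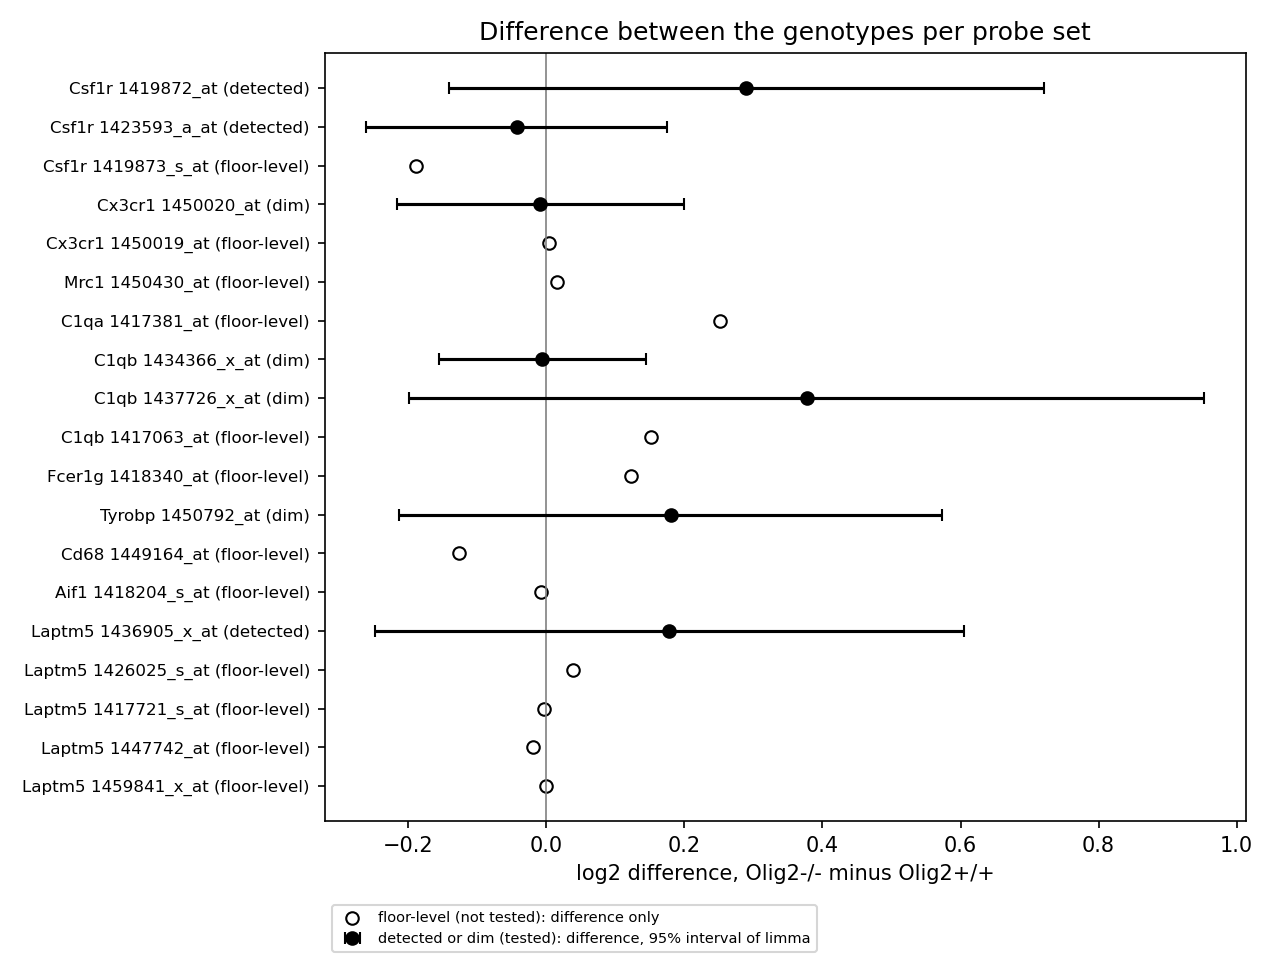
Difference between the genotypes (x axis, log2, Olig2-/- minus Olig2+/+) for each of the 19 member probe sets. Filled points with bars are the 7 kept probe sets with limma's 95% interval, and open points are the 12 floor-level probe sets, which were not tested. All 7 intervals include 0.

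No member passed the test between the genotypes. Of the 7 kept member probe sets, 0 had limma's adjusted p below 0.05 and 0 had an unadjusted p below 0.05, the lowest being 0.15. Over all 22565 kept probe sets, 0 passed the adjusted threshold (0%) and 9.40% had an unadjusted p below 0.05. Of the 5 kept member genes, each taken at its probe set of highest mean, 3 were higher and 2 lower in the knockout, where 49.4% of all 10630 kept genes were higher. With median centring or repeated quantile normalization all 5 were higher, C1qb and Cx3cr1 by only 0.01 to 0.02. The share of all genes that were higher was not counted under those settings. Groups did not overlap for 0 of the 5, against 16.4% of all kept genes. The median difference of the 5 was 0.18, and that of all kept genes was -0.0015. With single knockout arrays dropped, the median of the 5 was 0.27 (replicate 2), 0.01 (replicate 4) or 0.09 (replicate 5), and dropping wild-type replicate 1 gave 0.05. In RNA of a whole tissue, a change in the number of macrophages and a change in RNA per macrophage could not be told apart. The intervals show the resolution of single probe sets. At the brightest probe set of Csf1r (1419872_at) the interval ran from -0.14 to 0.72 on the log2 scale. At its other detected probe set (1423593_a_at) it ran from -0.26 to 0.18. Which of them reads Csf1r more closely was not tested.

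The 6 arrays also differed among themselves in which of them carried the highest member readings. Knockout replicate 4 was highest by more than 0.05 for 5 of the 19 member probe sets (26.3%), namely both dimmer C1qb probe sets, Tyrobp, Fcer1g and a floor-level Laptm5 probe set. It was highest for 8.66% of all probe sets and for 3.89% of all floor-level ones. Knockout replicate 2 was highest for 0 of the 19. Wild-type replicate 5 was lowest by more than 0.05 for 5 of the 19, including C1qa and Fcer1g at the table's floor, and for 4.22% of all probe sets. Of 58 floor-level probe sets of the microglia, border macrophage and pan-macrophage lists, knockout replicate 4 was highest for 3 (5.17%). That count leaves out the kept genes of these lists, whereas the 19 member probe sets include kept ones. Among those kept genes Cst3, Cyba, Cd53 and Lcp1 also read highest on knockout replicate 4, and the remaining kept genes read highest on other arrays. These patterns were noticed after the values were seen.

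**Figure D3:**
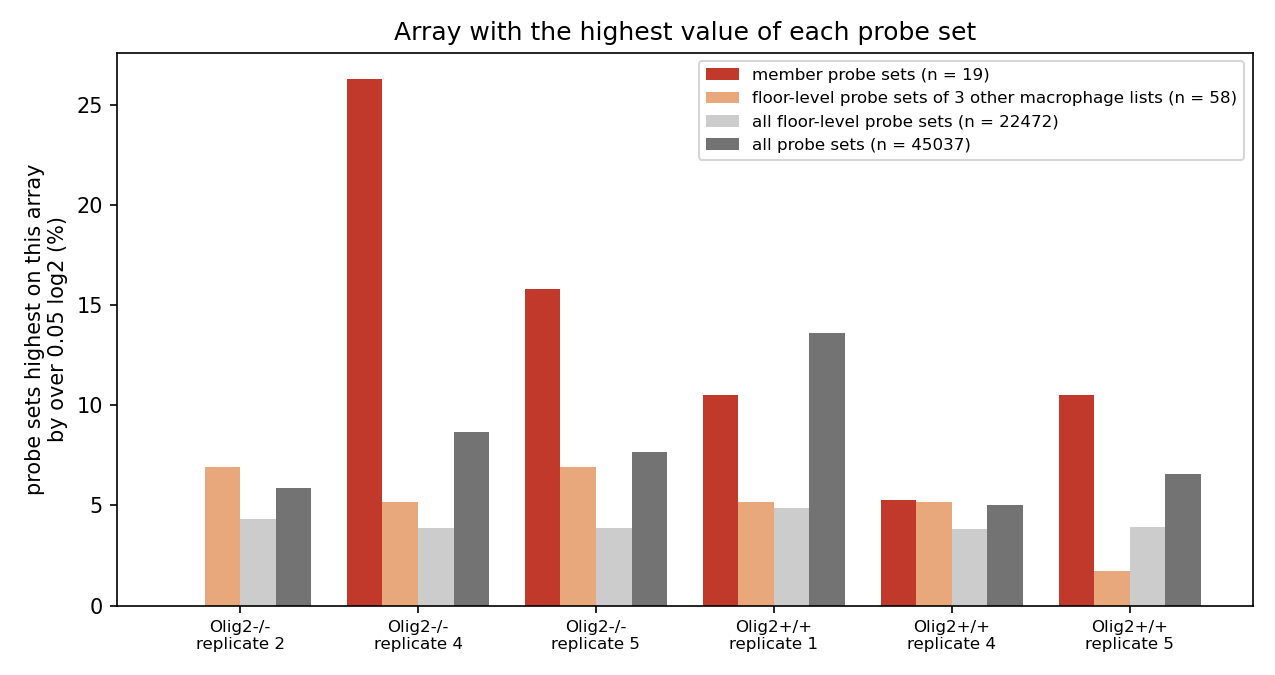
Share of probe sets (y axis, percent) that were highest on each array by more than 0.05 on the log2 scale. Knockout replicate 4 held 5 of 19 member probe sets of all level classes (26.3%), and 3 of 58 floor-level probe sets of the other macrophage lists (5.17%). Kept probe sets of those lists are not shown separately.

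Averaged over the 5 kept member genes, each centred on its own mean, the arrays lay at -0.03, 0.13 and 0.09 in the knockout and at -0.12, 0.08 and -0.15 in the wild type (replicates in the order given above). The groups overlapped through wild-type replicate 4, which lay above knockout replicate 2. Which array was highest or lowest depended on single genes. Without Tyrobp the mean was highest on knockout replicate 5 (0.13) and was 0.05 on knockout replicate 4. Without Csf1r it was lowest on wild-type replicate 1 (-0.11). Markers of other cells moved beside this level on some arrays. The mean of 5 kept erythroid genes was also highest on knockout replicate 4 (0.35) and lowest on wild-type replicate 1 (-0.44), but on wild-type replicate 5, where the macrophage genes were lowest, it was 0.29. The mean of 12 endothelial and pericyte genes was highest on knockout replicate 4 (0.12) and lowest on wild-type replicate 5 (-0.09). Its sign was opposite to that of the macrophage genes on knockout replicate 5 (-0.05), wild-type replicate 1 (0.05) and wild-type replicate 4 (-0.03). The part of blood or vessels in the member readings was not tested. Of 17 genes of other leukocytes and platelets 16 were below a log2 value of 4 on every array, the exception being Kit, a receptor that embryonic brain cells also express.

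The 8 other genes whose centred values lay closest to that average, ranked by the mean absolute difference over the 6 arrays, were Thoc5, Ufd1, Ipo5, Mgat4a, Tspan6, Cdc37, Caml and Wdr1. None of them is a macrophage marker by the lists used here. Their mean absolute differences from it were 0.021 to 0.029, where the median over the 10625 genes ranked was 0.143 and 97 genes lay within 0.05. The average itself ranged over 0.28 on the log2 scale.

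Most genes of the wider macrophage lists were floor-level. Of 14 measured genes of the microglia signature 4 were kept, of 14 genes of border and yolk sac macrophages 2, of 21 pan-macrophage and myeloid genes 7, and of 14 macrophage transcription factors 4. Below a log2 value of 4 on every array and probe set were 6 of the 10 members, 11 of the 14 microglia signature genes, all 14 border macrophage genes and 17 of the 21 pan-macrophage genes, against 44.5% of all genes. Named after their values were seen, Spi1, whose product PU.1 directs macrophage fate, stayed between 2.27 and 2.32, Trem2, the receptor that signals through Tyrobp, between 2.27 and 2.40 on both of its probe sets, and the pan-macrophage marker Adgre1 (F4/80) between 2.74 and 3.01. By contrast, 12 of 15 genes of endothelium and pericytes and 9 of 9 cell cycle genes were kept.

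**Figure D4:**
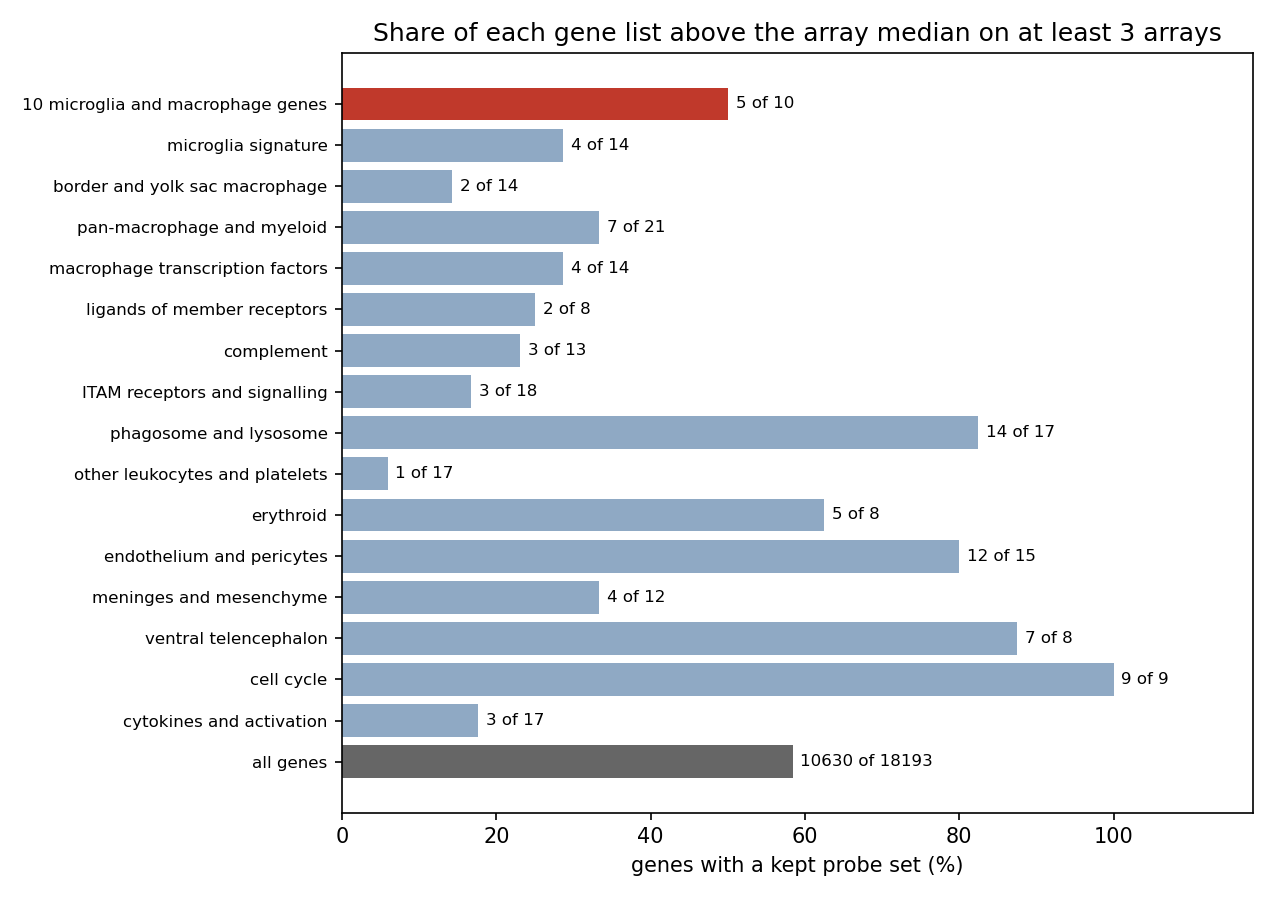
Share of the measured genes of each list (x axis, percent, with counts) that had a probe set above the array median on at least 3 arrays. The members lie at 5 of 10, the 3 other macrophage lists at 2 of 14 to 7 of 21, and all genes at 10630 of 18193.

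None of these lists held a gene past limma's adjusted threshold. The kept genes named below are those of lowest p in each list, a choice that favours groups without overlap. Over all kept genes, 16.4% had groups without overlap. In the microglia signature list 3 kept genes were higher and 1 lower in the knockout (median 0.09). The lower one, Sparc, a matrix protein that many embryonic cells make, read 9.06, 8.88 and 8.66 in the knockout and 9.55, 9.12 and 9.35 in the wild type, without overlap (-0.47, SE 0.15, limma's adjusted p = 0.511). The transcription factor Sall1, which microglia share with neural progenitors, differed by 0.15, also without overlap, and the protease inhibitor Cst3 by 0.19. In the pan-macrophage list 6 were higher and 1 lower (median 0.10), with differences of 0.16 for the NADPH oxidase subunit Cyba (groups without overlap), 0.23 for the inhibitory Fc receptor Fcgr2b and -0.27 for the actin regulator Coro1a (-0.16 without knockout replicate 2). In the border macrophage list Dab2, an endocytic adaptor, differed by 0.17, and by -0.03 without knockout replicate 2, and the scavenger receptor Stab1 by -0.07. Of the transcription factors 3 were higher and 1 lower (median 0.03): Fli1, which also acts in endothelium, differed by 0.48 (SE 0.14, limma's adjusted p = 0.511) with groups that did not overlap, Mef2a by 0.05 and Maf by -0.12. Mef2a differed by 0.09 without knockout replicate 2 and by -0.04 when wild-type replicate 4 was dropped. Maf differed by -0.31 without knockout replicate 2 and by 0.10 without knockout replicate 4.

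Lists of ligands, complement and receptor signalling gave the following counts. Of 8 ligand genes 2 were kept, both lower: Cx3cl1, the fractalkine that binds Cx3cr1, read 4.78, 4.45 and 4.75 in the knockout and 5.77, 4.73 and 4.75 in the wild type (-0.42, SE 0.30, limma's adjusted p = 0.576). Wild-type replicate 1 alone stood high there. Tgfb2, a growth factor on this list that is not a ligand of a member receptor, differed by -0.23. Both ligands of Csf1r were floor-level, Csf1 at up to 3.12 and Il34 at 2.27 on every array. Of 13 complement genes 3 were kept, 1 higher and 2 lower: the regulator Cr1l differed by 0.12, the C1 inhibitor Serping1 by -0.05 and Cd59a by -0.02. Without knockout replicate 2 they differed by 0.07, -0.08 and 0.03, and without knockout replicate 4 Serping1 differed by 0.00086. Of 18 genes on a list of receptors with the activation motif and of their signalling, 3 were kept, all higher. They were Grb2, an adaptor of many receptors (0.23, without overlap of the groups, limma's adjusted p = 0.511), Fcgr2b and the lipid phosphatase Inpp5d (0.12). None of these 3 is an activating receptor, and Fcgr2b was also counted in the pan-macrophage list.

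Many lysosomal genes, which are not particular to macrophages, were bright, such as Npc2 at 10.06 to 10.47. Pros1 and Axl on the same list read lower, at 4.12 to 4.42 and 4.46 to 5.13. Of 17 genes of phagosome and lysosome 14 were kept, 7 higher and 7 lower, with a median difference of -0.0090. The growth factor precursor Grn differed by 0.25 with groups that did not overlap, the protease Ctsz by 0.32 and Lamp1 by -0.12. Of 17 cytokine and activation genes 3 were kept, all higher: the lipid carrier Apoe differed by 0.14, the lipase Lpl by 0.14 and Igf1 by 0.05. Without knockout replicate 2 Igf1 differed by -0.26, so 2 of the 3 were higher, and without wild-type replicate 1 Lpl differed by -0.02.

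Promoter sequence is shown for the 2 kept members whose RefSeq promoter (GRCm38.p6, 250 bases before to 50 after the start) held a core of PU.1 sites, GAGGAA, searched on both strands and with no other motif. Promoters were matched by symbol for 7 of the 10 members, without C1qa, Csf1r and Tyrobp. Capitals mark the motif, which reads TTCCTC where it lies on the other strand.
C1qb, chr4:136886151-136886450, minus strand: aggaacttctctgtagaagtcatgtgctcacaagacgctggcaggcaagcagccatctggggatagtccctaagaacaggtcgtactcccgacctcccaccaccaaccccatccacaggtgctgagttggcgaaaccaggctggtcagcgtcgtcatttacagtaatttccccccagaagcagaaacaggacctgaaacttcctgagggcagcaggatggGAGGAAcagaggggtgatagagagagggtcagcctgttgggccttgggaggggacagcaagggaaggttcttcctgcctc
Laptm5, chr4:130913066-130913365, plus strand: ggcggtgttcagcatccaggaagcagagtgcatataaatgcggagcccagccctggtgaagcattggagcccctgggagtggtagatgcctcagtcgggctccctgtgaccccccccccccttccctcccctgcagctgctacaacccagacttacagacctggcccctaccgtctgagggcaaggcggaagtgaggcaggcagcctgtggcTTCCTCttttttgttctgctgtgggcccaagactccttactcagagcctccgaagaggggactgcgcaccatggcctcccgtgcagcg
The motif was in 5 of the 7 member promoters and in 28.3% of the 32851 promoters of 300 bases in the table. In C1qb it began 30 bases before the start and in Laptm5 38 bases before it. The match describes the letters only, and Spi1 itself was floor-level on these arrays.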

How the data were processed

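RNA of E13.5 ventral forebrain, pooled from 3 brains per array with 6 ug of total RNA labelled, was hybridised to 6 arrays, per the labels' protocols. The authors deposited 1 table of log2 values. The design text of the series names GCOS, MAS 5.0 and GCRMA with quantile normalization as its source, without versions. GCRMA's background step sets a floor at which arrays share values: 93.7% of the 22472 floor-level probe sets had at least 4 arrays within 0.05 of their median. Quantile normalization hides changes in total RNA. Whether the arrays come from separate litters is not stated, so p-values measure the spread between these arrays.

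Probe sets were named from the platform annotation. Genotypes were compared by limma's moderated two-sided test (version 3.58.1, R 4.3.3) without a block, and p-values were adjusted by Benjamini and Hochberg's method over 22565 probe sets, with a threshold of 0.05. The step was tested on simulated data. Members and lists were chosen with earlier results of these data known. Named were all members, the 3 kept genes of lowest p from lists described and the 8 genes nearest in pattern. Alternatives covered filters, normalization, variance model, array weights, a replicate block, probe set choice and arrays left out.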

Additional observations from a re-analysis of the deposited data

How the results depend on the processing

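No member and no other probe set passed limma's adjusted p of 0.05 under any alternative run. At their probe sets of highest mean, or the mean of their kept probe sets, the difference ranged from 0.12 to 0.48 for Csf1r and from 0.05 to 0.44 for Laptm5 over 16 alternatives, and from 0.00085 (without knockout replicate 4) to 0.28 for Tyrobp over the 15 that kept it. The count of kept member genes higher in the knockout, 3 of 5, was 6 of 10 without a filter, and 5 of 5 with repeated quantile normalization and with median centring. It was 4 of 5 with array weights, the replicate block and the mean of the kept probe sets. With single arrays left out it was 3 or 4 of 5, and 4 without both knockout replicate 2 and wild-type replicate 4. The matching share of all genes was not counted under these settings. The median difference of 0.178 was 0.0693 without a filter and from 0.0115 to 0.272 with single arrays left out. Member genes whose groups did not overlap, 0 in the main comparison, numbered from 0 to 1 with single arrays left out and 3 when knockout replicate 2 was dropped together with wild-type replicate 4. The share over all genes was not counted for these smaller sets of arrays, so the counts have no background. In the mean level of the kept members this pair was the lowest knockout (-0.03) and highest wild-type array (0.08). Dropping it widens that difference by construction. It also gave the upper ends above for Csf1r, Laptm5 and Tyrobp. The sign of Cx3cr1 turned with repeated quantile normalization (0.0138), median centring (0.0107), array weights (0.0574), the replicate block (0.00467), without knockout replicate 4, wild-type replicate 1 or wild-type replicate 4 (single arrays left out gave -0.0759 to 0.0433), and without the pair just named (0.042). That of C1qb turned with repeated quantile normalization (0.0249), median centring (0.0136), the mean of its probe sets (0.185), and without knockout replicate 5 or wild-type replicate 5 (single arrays left out gave -0.0171 to 0.0112). The cause was not tested. With detected genes only, the mean level moved to 0.266 on knockout replicate 5 and to -0.259, 0.192 and -0.283 on wild-type replicates 1, 4 and 5. With a log2 level of 5 in place of 4, 2 probe sets were detected in place of 3.

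Both genotypes have arrays numbered 4 and 5. The deviations of same-numbered arrays from their group means correlated at -0.292 for number 4 and 0.32 for number 5, and neither the labels nor these values show that a number pairs arrays. With the replicate block 0 probe sets passed, 4 of the 5 kept member genes were higher and their median difference was 0.169. Of the 12 floor-level probe sets, 11 had at least 4 arrays within 0.05 of their own median, which limits what these arrays can show. Whether the background step compressed their differences was not tested.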
